A study of Rattus norvegicus with 232 samples.

Results

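Corin is a serine protease anchored in the cell membrane by a segment near its amino end. It cuts the inactive precursor of atrial natriuretic peptide (encoded by Nppa) into the active hormone, which lowers blood pressure through the receptor encoded by Npr1. The gene is best known from heart muscle, and in the developing midbrain it marks the floor plate, the tissue that gives rise to dopamine neurons. Loss of corin raises blood pressure in mice, and SHR, one of the strains studied here, is spontaneously hypertensive.

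Expression of Corin was described across inbred rat strains, in brain. A reconstructed transcriptome (version v5, on the rn6 genome) held 2 features named Corin among 99376 features. A later version (v7.1) held 1 Corin feature among its reconstructed genes, and 1 Corin gene among 20932 RefSeq genes. The features were chosen by name, and Corin itself was chosen because its level differed between strains in these libraries, so all values of Corin are given as a description with no test.

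Total RNA depleted of ribosomal RNA was sequenced from brains of drug-naive, untreated male rats, 232 samples of 74 strains in all. In v5 there were 45 strains with 3 animals each and 1 library per animal. Of these strains, 30 belonged to the HXB/BXH family, recombinant inbred lines derived from crosses between SHR/OlaIpcv (the hypertensive progenitor) and BN-Lx/Cub (a Brown Norway congenic), and 15 were classic inbred strains, among them both progenitors, SHRSP/A3NCrl and 3 substrains of F344. A recombinant inbred line is homozygous at almost every locus for the allele of one progenitor or the other, so a trait set by 1 locus is found at the level of SHR/OlaIpcv in some lines and at that of BN-Lx/Cub in others. The v7.1 tables added strains of the FXLE/LEXF family, derived from F344/Stm and LE/Stm, and raised the number of classic inbred strains from 15 to 25, with BUF/MnaMcwi, PVG/Seac, MWF/Hsd and others. The animals of v5 were young adults by the study's methods, and strains differed in more than genotype. Brains of the HXB/BXH lines and their progenitors came from a colony in Prague in liquid nitrogen, whereas those of the other inbred strains of v5 came from commercial breeders and were put in RNAlater, and depletion of ribosomal RNA was altered in later batches.

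Before any result, libraries were compared with the mean of the other animals of each strain over the 2000 features with the smallest strain p-value, Corin left out. In v5, 4 libraries lay closer to another strain than to their own. F344/NCrl replicate 2 was closest to SHRSP/A3NCrl (r = 0.49 against 0.40 with its own strain) and SHRSP/A3NCrl replicate 1 was closest to F344/NCrl (r = 0.44 against 0.40). F344/NCrl replicates 1 and 3 were closest to F344/NHsd, a substrain of the same origin. Levels of neuron, oligodendrocyte and astrocyte markers were high in every strain of v7.1, with summed levels of 16.7 to 16.9, 17.8 to 18.6 and 15.6 to 16.0 on the log2 scale. The values were normalised and log-transformed by the authors, so the depth of each library is unknown.

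The 2 Corin features of v5 did not describe the same transcript. The one with the higher mean, and therefore taken as the main feature, was PRN6.5G0172732 at chr14:38457661-38517393 on the plus strand of rn6. It had 3 exons of 12, 281 and 12 nt, so that 92.1% of its 305 nt lay in the middle exon, at chr14:38499260-38499540. This middle exon began 25612 nt beyond the end of the annotated Corin gene. It fell within the span of Atp10d (chr14:38475908-38575826), a gene for a phospholipid flippase on the opposite strand, and touched no exon of any other feature. The other feature, PRN6.5G0172710 at chr14:38247791-38473648, had 22 exons and 3708 nt and corresponded to the annotated Corin messenger RNA, ENSRNOT00000064128. The exons of the 2 features had 0 bases in common. They are called here the 3-exon feature and the annotated feature. The higher mean served only to fix which feature is called the main one. The levels of the 2 cannot otherwise be set against each other, since the values are not per length.

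The promoter of annotated Corin is shown because it marks where the annotated gene begins, at a distance from the reads of the 3-exon feature, whose own start lay 209870 nt further downstream in rn6. It is the run of 250 bases before the RefSeq start, at chr14:36035316-36035565 on the plus strand of GRCr8, a build other than that of the expression files. Capitals mark CG pairs.
Corin promoter: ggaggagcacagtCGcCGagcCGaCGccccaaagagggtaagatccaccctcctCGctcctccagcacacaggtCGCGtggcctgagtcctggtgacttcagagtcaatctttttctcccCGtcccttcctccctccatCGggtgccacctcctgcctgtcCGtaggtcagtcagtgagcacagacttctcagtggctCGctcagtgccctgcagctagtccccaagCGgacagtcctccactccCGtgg
It held 13 CG pairs, against a median of 5 in 33469 promoters of the same length, of which 29.45% held as many or more. Its GC content was 62.4%. On either strand it held no TATAAA (12.9% of promoters hold it), no CCAAT (34.0%), no GATAA (23.5%) and no GGGCGG (30.5%).

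The 3-exon feature was found at a low level in 12 strains and at a high level in 33, with no strain mean in between. In the 3 BN-Lx/Cub animals it measured 3.94, 4.01 and 4.54 (mean 4.17 ± 0.33, SD, n = 3). In the 3 SHR/OlaIpcv animals it measured 9.22, 10.31 and 10.61 (mean 10.05 ± 0.74, SD, n = 3). The groups did not overlap. No read counts were used, so a low level of few reads cannot be told from one of no reads. If it stands for no reads, the size of the difference depends in part on the log transform. These are bulk samples, in which fewer cells of a type and less RNA per cell cannot be told apart. The difference (BN-Lx/Cub minus SHR/OlaIpcv) of -5.88 on the log2 scale was the third in absolute size among all 99376 features, a rank that reflects how the feature was chosen.

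The low strains ran from 3.98 in DA/OlaHsd to 4.23 in ACI/SegHsd. Between them lay SR/JrHsd, WKY/NCrl, LEW/SsNHsd, COP/CrCrl, SHRSP/A3NCrl, F344/NCrl, SS/JrHsd, BN-Lx/Cub, LEW/Crl and F344/NHsd. Neighbours in this order did not differ beyond the spread of their animals, which had a pooled SD of 0.20. The next strain mean above was 3.26 higher, that of BXH6/Cub at 7.49. From there the high strains rose to 10.45 in HXB20/Ipcv. The largest step between neighbouring means other than the gap was 0.61. The pooled SD within the high strains was 0.86, and 0.53 without the low animal of BXH6/Cub and that of BXH9/Cub, so that this step, between LE/Stm and BXH11/Cub, is within the spread only when those animals are counted. By library the split was as clear: 38 libraries lay between 3.91 and 4.67 (median 4.02), 97 lay between 7.66 and 10.83 (median 9.50), and none lay in the interval of 2.99 between them.

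**Figure D1:**
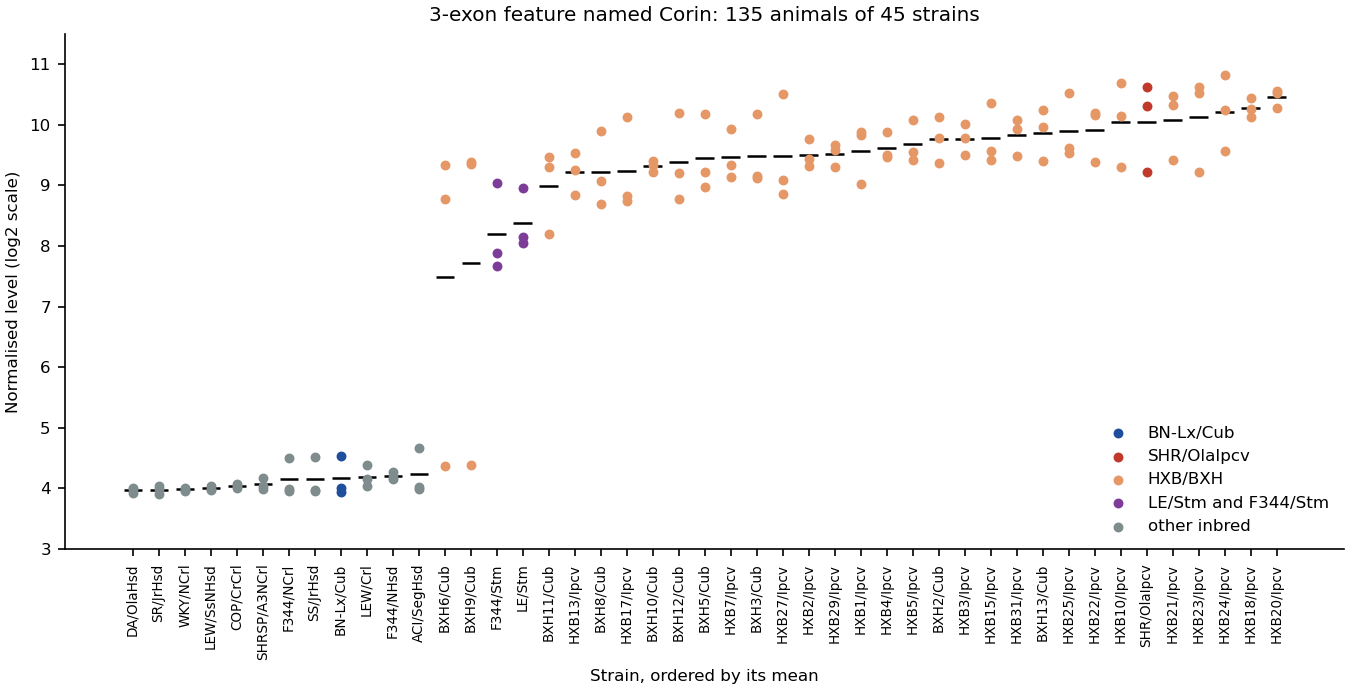
Level of the 3-exon Corin feature (vertical axis, authors' normalised log2 scale) in 3 animals of each of 45 strains, ordered by strain mean; each point is an animal and each bar a strain mean. The 12 strains on the left lie at 3.98 to 4.23, the other 33 at 7.49 to 10.45, and 1 animal each of BXH6/Cub and BXH9/Cub lies in the low range.

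Related strains fell on opposite sides. SHRSP/A3NCrl, the stroke-prone strain derived from the spontaneously hypertensive rat, measured 3.99, 4.05 and 4.17, far below SHR/OlaIpcv. F344/Stm measured 7.66, 7.88 and 9.04, whereas F344/NHsd measured 4.16, 4.19 and 4.26 and F344/NCrl 3.96, 3.99 and 4.50. LE/Stm measured 8.04, 8.14 and 8.95. The 4 libraries that resembled another strain were all in the low range, as were all libraries of the strains they resembled, so they do not bear on the split.

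Strain accounted for 94.2% of the variance of the 3-exon feature among animals (median over all features 41.9%), and 97 features had a higher share. The SD of the 45 strain means was 2.48, and the pooled SD of animals within strains was 0.74.

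The HXB/BXH lines did not divide between the levels of their progenitors. In all 30, the strain mean was nearer to SHR/OlaIpcv than to BN-Lx/Cub. The 20 HXB lines ran from 9.21 to 10.45 (median 9.77) and the 10 BXH lines from 7.49 to 9.87 (median 9.35), so that 5 lines exceeded SHR/OlaIpcv and none approached 4.17. The number above SHR/OlaIpcv was 10 without replicate 1, 1 without replicate 2 and 7 without replicate 3. A normal mixture with equal variances placed 28 lines in a cluster at 9.68 and the other 2, BXH6/Cub and BXH9/Cub, at 7.60. That low cluster rested on 1 animal in each line. BXH6/Cub measured 8.77, 9.34 and 4.38, and BXH9/Cub measured 9.35, 9.39 and 4.39. The 2 low animals were both replicate 3 and both in sequencing batch 7, and each was closer to its own strain than to any other over the 2000 features (r = 0.75 and 0.74). Without these 2 animals the lowest line mean was 8.99 and all 30 lines were still nearer to SHR/OlaIpcv.

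This pattern was uncommon among features that differed between the progenitors. By the moderated contrast of limma (Benjamini-Hochberg, 5%), 2083 of 99376 features set the progenitors apart, 2.10% of those tested. Across these, the median number of HXB/BXH lines nearer to SHR/OlaIpcv was 15 of 30 (quartiles 11 and 18). In 81 of them (3.89%) all 30 lines were nearer to SHR/OlaIpcv, and in 18 all 30 were nearer to BN-Lx/Cub. Of the 205 called features with a difference over 3 on the log2 scale, 24 (11.7%) had all 30 lines nearer to SHR/OlaIpcv and 154 had 10 to 20 lines nearer to it. The 3-exon Corin feature was one of the 24. As it was chosen on the contrast between the progenitors, these counts place it and do not test it. The authors had also kept only features detected in most samples, and the HXB/BXH lines made up most of v5. A feature without reads in these lines would have been dropped, whereas the 3-exon feature could pass through its high strains alone. The counts hold only for features that passed.

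**Figure D2:**
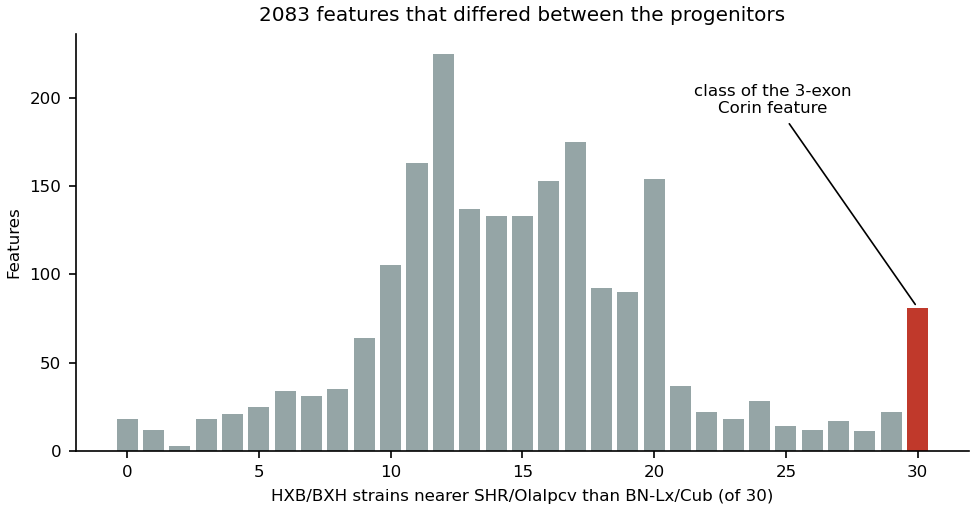
Number of HXB/BXH lines, of 30, whose mean was nearer to SHR/OlaIpcv than to BN-Lx/Cub (horizontal axis), for the 2083 features that differed between the progenitors; bar height is the number of features. The median is 15 lines, and the bar at 30 lines, in red, holds 81 features including the 3-exon Corin feature.

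Sequencing batch moved with part of this. Among HXB/BXH libraries in the high range, the batch mean ran from 9.14 in batch 1 (14 libraries) to 10.3 in batch 6 (20 libraries), and the SHR/OlaIpcv animals followed the same order, with 9.22 in batch 1 and 10.31 and 10.61 in batch 6. Sequencing batch here and below means the batch number in the library name. The sample titles also name a sequencing batch, which is another number for some libraries. By name, both levels were present within several batches of v5. In batch 3, the 2 BN-Lx/Cub libraries measured 3.94 and 4.01 and the 13 HXB/BXH libraries 8.77 to 9.47. In batch 10, 12 libraries of other inbred strains lay at 3.93 to 4.50 and 5 HXB/BXH libraries at 9.48 to 10.18. By title these 5 were of batch 7 and the 12 of other batches, so that the low and the high among them shared no batch. Both levels also occurred within batch 7, whose v5 libraries were all of HXB/BXH lines. By name, no batch of v5 held libraries of both progenitors, but HXB/BXH libraries were also sequenced in batches 1, 3 and 6. The SHR/OlaIpcv replicate 3 library (10.61), of batch 6 by name, could not be tied to 1 sample. A candidate title gives batch 4, which it would then share with the BN-Lx/Cub replicate 3 library. By name, batch 4 held 1 BN-Lx/Cub library and no other, so that this animal (4.54) adds nothing to a fit with these batches. In batch 6 the 2 SHR/OlaIpcv libraries averaged 10.5 and the HXB/BXH libraries 10.3. In a fit of strain and batch together, added after the data had been seen, the difference between the progenitors, resting on the other 2 BN-Lx/Cub animals, was -6.19. In v5 the Stm strains shared batches 13 and 14 with no other strain.

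Colony, handling and cell type markers also moved with the split in part. All low strains but BN-Lx/Cub came from the commercial breeders and RNAlater, and BN-Lx/Cub shared its source with the HXB/BXH lines. F344/Stm and LE/Stm, which the methods also count with the strains from breeders, were in the high range (8.19 and 8.38). In v5 the range of strain sums overlapped between the low and the high strains for all 10 cell types measured. The sums of neurons (median 16.9 in the low strains, 17.0 in the high) and heart muscle (8.54 and 8.50) were close. Those of meninges (12.1 and 11.4) and microglia (13.1 and 12.7) were higher in the low strains, and those of oligodendrocytes (18.0 and 18.6), blood (14.3 and 15.1) and liver (10.3 and 10.9) in the high. For BN-Lx/Cub against SHR/OlaIpcv the sums were 11.1 and 10.9 for meninges, 12.5 and 12.3 for microglia, 15.1 and 15.2 for blood and 9.90 and 10.6 for liver, in the direction of the split, and 18.6 and 18.3 for oligodendrocytes, in the other direction. The part of these in the split was not tested.

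**Figure D3:**
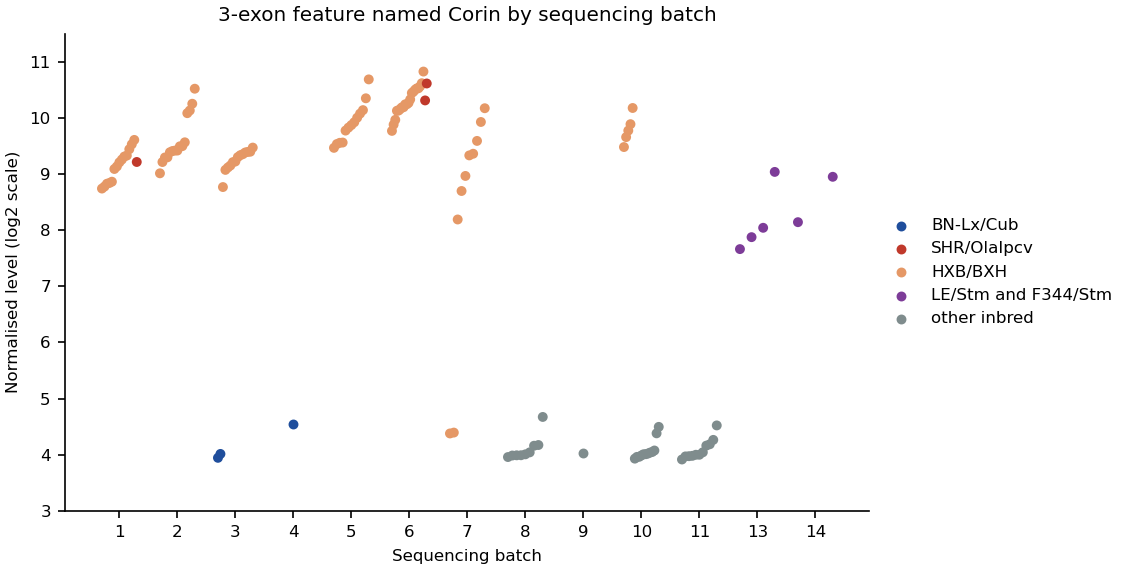
Level of the 3-exon Corin feature (vertical axis, log2 scale) by batch number of the library name (horizontal axis), each point a library coloured by strain group. By library name, batches 3 and 10 hold both levels, with HXB/BXH libraries at 8.77 to 10.18 and inbred libraries at 3.93 to 4.50. By sample title, the low and the high libraries of batch 10 are of different batches.

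The order of the strains recurred elsewhere in the genome. Besides the 3-exon feature, 77 features placed the same 12 strains wholly below the other 33 or wholly above them. Counting the 3-exon feature, 39 had the 12 strains below and 39 had them above. The 77 lay on 19 chromosomes, 5 of them on chromosome 14. Of these 77, 63.6% had a single exon, against 27.7% of all features, and their median spliced length was 375 nt, against 1982 nt. An exon of 12 nt or less was found in 4 of the 77 (5.19%, against 4.55%). No gene symbol was carried by 70.1% of them, against 62.5% of all features. Each library was then scored by how many of the 77 features were nearer to the mean of the 12 strains. The 36 libraries of those strains scored 61 to 77 and the 99 libraries of the other strains 0 to 19. The 2 low animals of BXH6/Cub and BXH9/Cub scored 12 and 10, so that at most of these features they lay with the high strains although their value of the 3-exon feature did not. These features were picked for an order of strains that was read from the 3-exon feature, so the counts are a description. The means of BXH6/Cub and BXH9/Cub used in the picking included the 2 low animals. Their scores of 12 and 10 therefore follow in part from the picking.

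By correlation over all 45 strain means, a measure chosen after the values had been seen, 38 features had an absolute r over 0.9 with the 3-exon feature. Of these, 57.9% had a single exon and 5 of the 38 (13.2%) had an exon of 12 nt or less. The most alike with a symbol was LOC100359951 on chromosome 5 (r = 0.99), at 3.76 in BN-Lx/Cub and 9.16 in SHR/OlaIpcv. A feature of Xpo1, the nuclear export receptor, also on chromosome 14 but far beyond the neighbourhood of Corin, ran the other way, with 10.27 in BN-Lx/Cub and 3.69 in SHR/OlaIpcv (r = -0.96). LOC100360841 on chromosome 10 had 1 feature with each sign, from 3.81 to 8.69 and from 11.41 to 7.44. In all 10 of the most alike features with a symbol, the 30 HXB/BXH lines were nearer to SHR/OlaIpcv. This largely follows from picking features like one in which all 30 lines were.

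Within the 30 HXB/BXH lines alone the likeness was of another kind. The features with a symbol and the largest absolute r were Dars (aspartyl-tRNA synthetase, r = 0.95), LOC100359951 (0.92), Tssc4 (0.88), Tspyl4 (0.87), AC125757.1 (0.86), Dedd2 (0.86), Srcin1 (0.85), Rps10l1 (0.85), Gon7 (-0.85) and Dnttip1 (0.84). The points share libraries and batches. When BXH6/Cub and BXH9/Cub were left out, r fell to 0.56 for Tssc4 and 0.52 for AC125757.1, and remained 0.90 for Dars and 0.79 for LOC100359951. Over all 45 strains Dars had r = -0.10, and the level of Dars in BN-Lx/Cub (11.30) was close to that in SHR/OlaIpcv (11.46). Of the 10, only LOC100359951 and Rps10l1 were also among the 10 most alike over 45 strains.

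Genes around the 3-exon feature were measured as well. Within 2 Mb, 41 features of 21 other named genes were tested and 0 set the progenitors apart by limma (Benjamini-Hochberg, 5%), with 4 at an unadjusted p under 0.05. Over all features 2.10% did, so a count of 0 is close to that share. Their differences ran from -0.72 to 0.63 (median 0.09, against -0.07 over all features). Atp10d, on whose opposite strand the middle exon lies, measured 8.60 in BN-Lx/Cub and 8.38 in SHR/OlaIpcv (difference 0.22, SE 0.16, adjusted p = 0.81). Cnga1, a cyclic nucleotide-gated channel gene next to the start of Corin, measured 10.78 and 10.76. Among 116 features without a symbol, 3 differed (13 at an unadjusted p under 0.05), which is also close to 2.10%. The nearest, PRN6.5G0172786, began 105 kb downstream and was higher in BN-Lx/Cub by 1.09 (SE 0.26, adjusted p = 0.0048). Its HXB/BXH lines divided, with 14 of 30 nearer to SHR/OlaIpcv, and it varied among them (adjusted p = 9.1e-17, limma F-test).

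Strain differences of other kinds were found nearby. By the limma F-test over 45 strains, 36.7% of all features varied between strains, and 14 of the 41 named neighbours did. The smallest adjusted p-values belonged to Tec (a tyrosine kinase of the immune system, 7.54 in HXB10/Ipcv to 8.71 in SS/JrHsd, adjusted p = 6.1e-11), Cnga1 (1.1e-05), Ociad1 (2.9e-05), Usp46 (0.00038), Dcun1d4 (0.0023) and AC114452.1 (0.0042). With sequencing batch as a covariate the calls of Ociad1 and Usp46 were lost. Those of Cnga1 (highest adjusted p = 0.31 by limma), Dcun1d4 (0.61) and AC114452.1 (0.41) were lost without at least 1 replicate number, and of the 6 only Tec kept its call under all 8 alternatives run. Among the HXB/BXH lines, where 10.4% of features varied, 3 named neighbours did, namely Tec (adjusted p = 3.8e-07), 1 feature of Gabrb1 (0.025) and 1 of Dcun1d4 (0.034). The correlation of the 41 with the 3-exon feature over the 30 lines ran from -0.37 to 0.42. For the 116 features without a symbol it ran from -0.52 to 0.61, and over all 45 strains from -0.77 to 0.90. The highest of both belonged to PRN6.5G0172542 (chr14:36857791-36935770), at 4.33 in BN-Lx/Cub and 5.41 in SHR/OlaIpcv (difference -1.09, adjusted p = 0.53 by limma). Inside the span of annotated Corin lay 16 features without a symbol, 8 on its strand. By limma 0 of the 16 set the progenitors apart (2 at an unadjusted p under 0.05, where 2.10% of all features were called), with differences from -1.30 to 0.47.

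**Figure D4:**
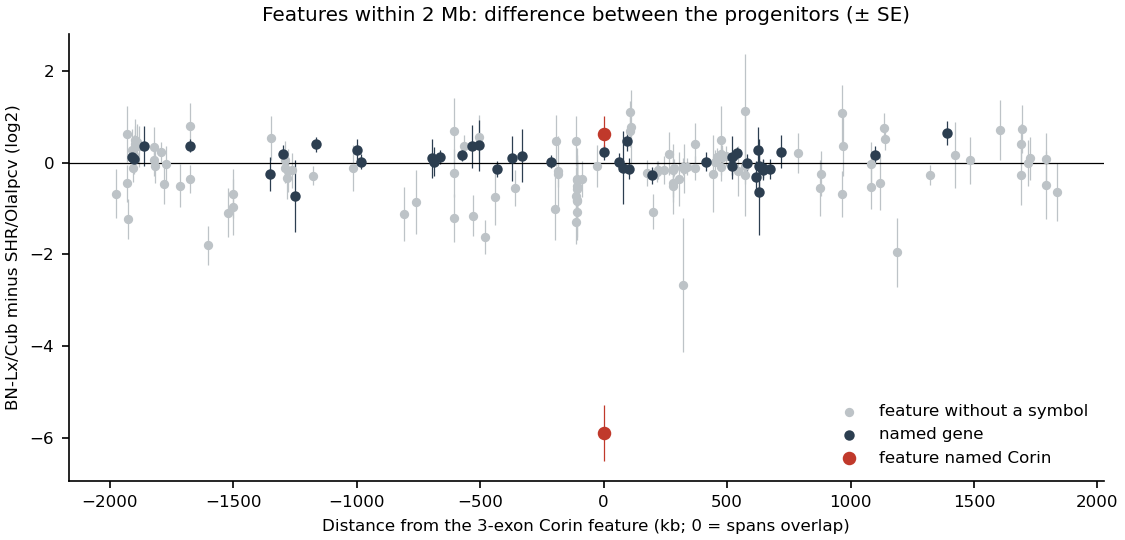
Difference between BN-Lx/Cub and SHR/OlaIpcv (vertical axis, log2 scale, bars ± SE of the limma fit) for features within 2 Mb of the 3-exon Corin feature, by distance in kb (horizontal axis; 0 where spans overlap). The 3-exon feature lies at -5.88, the annotated Corin feature at 0.61, the named neighbours between -0.72 and 0.63, and the features without a symbol between -2.67 and 1.12.

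The annotated Corin gene gave another picture. Its strain means formed no low and high set, and the order of the progenitors was the opposite. In v5 the annotated feature measured 3.96, 4.24 and 4.25 in BN-Lx/Cub and 3.10, 3.56 and 3.95 in SHR/OlaIpcv, so the groups came within 0.01 of each other without overlapping. The means were 4.15 ± 0.16 and 3.54 ± 0.43 (SD, n = 3 each), a difference of 0.61. Over 45 strains the means ran from 3.23 in COP/CrCrl to 5.70 in LE/Stm, with an SD of 0.44 against a pooled SD within strains of 0.49. Strain accounted for 55.2% of the variance, against a median of 41.9% over all features, and 14.8% of features had a higher share. The range of strain means was 2.47, against a median of 1.66. By mean level, which is not per length, 54.1% of features lay below the annotated feature.

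LE/Stm stood apart at the top. Its 3 animals measured 5.47, 5.69 and 5.94, and the step of 1.00 to the next strain was the only one between neighbours that exceeded the SD within strains. Liver genes were high in some of the same libraries. The summed level of 4 liver markers (Alb, Fgb, Apob and Serpina1) was 13.6, 59.0 and 31.0 in LE/Stm replicates 1, 2 and 3, against a median of 10.5 and a maximum of 18.4 in all other animals. Values of 59.0 and 31.0 are beyond what a log2 read count can reach, so in these libraries the scale itself is in doubt for such genes. Replicate 1, with a Corin level of 5.69, was within the range of the other animals for liver markers. In v7.1, where LE/Stm had 1 animal, its sum of liver markers was 23.6 against a median of 11.8 over strains, and its sum of choroid plexus markers, at 14.7, was also the highest. The part of these cell types in the Corin level was not tested. At the low end, COP/CrCrl measured 3.06, 3.12 and 3.50.

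**Figure D5:**
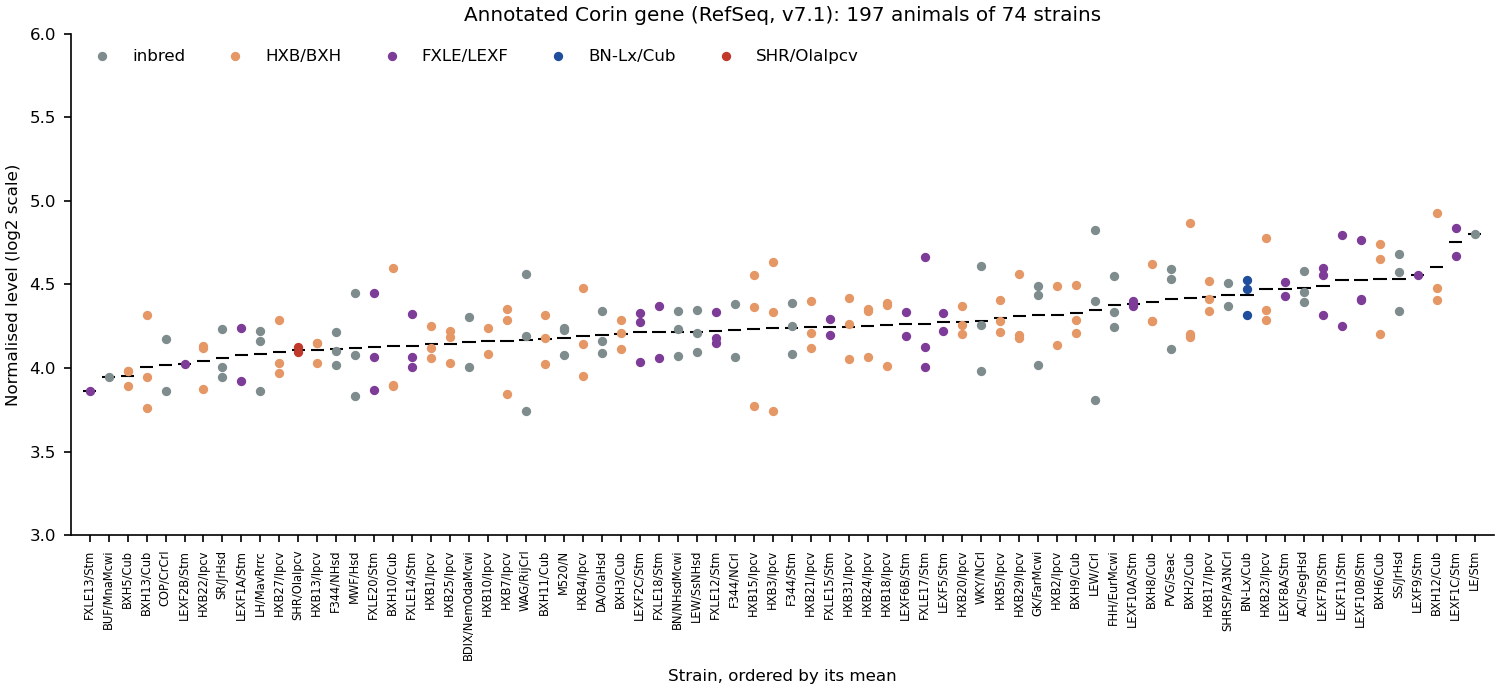
Level of the annotated Corin gene in the v7.1 RefSeq table (vertical axis, log2 scale) in 197 animals of 74 strains, ordered by strain mean; points are animals and bars are strain means. Means run from 3.86 in FXLE13/Stm to 4.80 in LE/Stm with no gap, and BN-Lx/Cub (4.44) lies above SHR/OlaIpcv (4.11).

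In the RefSeq table of v7.1, Corin ranged from 3.86 in FXLE13/Stm (1 animal) to 4.80 in LE/Stm (1 animal), with LEXF1C/Stm at 4.76 (4.67 and 4.84) and BXH12/Cub at 4.61 (4.41, 4.48 and 4.93). BN-Lx/Cub measured 4.32, 4.47 and 4.53 (mean 4.44 ± 0.11, SD, n = 3) and SHR/OlaIpcv 4.09 and 4.12 (mean 4.11 ± 0.02, SD, n = 2), without overlap. The 18 libraries of those 2 SHR/OlaIpcv animals allowed the error of repeated libraries to be read. The animal numbered 1 was sequenced in 12 libraries that ran from 3.89 to 4.37 (SD 0.14), and the animal numbered 4 in 6 libraries from 3.82 to 4.33 (SD 0.19). The highest of these overlapped the lowest BN-Lx/Cub animal. The pooled SD of animals within strains was 0.22 and the SD of the 74 strain means 0.18, and no step between neighbouring strains exceeded the former. The level of Corin was low in this table, with 21.3% of RefSeq genes at a lower mean, not per length. Whether this low level narrows the range of strains was not tested. In v7.1 blood markers moved with the progenitors: Alas2, Hba-a1 and Hbb were all lower in BN-Lx/Cub by limma (differences -1.49, -1.28 and -1.08, adjusted p = 0.00054, 0.011 and 0.021). These were 3 of 3 blood markers, where 4.48% of all genes were called. In v5, 0 of 2 blood features were called, where 2.10% of all features were. Of 5 neuron markers 1 was called, where 4.48% of all genes were: Snap25, higher in BN-Lx/Cub by 0.54 (adjusted p = 0.0016 by limma). The median difference of the 5 was -0.01, against -0.02 over all genes. The neuron sum of SHR/OlaIpcv (16.7, against 16.8 in BN-Lx/Cub) was the lowest of the 74 strains. The part of these in the Corin difference was not tested.

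By family, the 12 LEXF lines had a median of 4.43 (4.02 to 4.76) and the 7 FXLE lines one of 4.21 (3.86 to 4.26), beside 4.24 in F344/Stm and 4.80 in LE/Stm. The HXB lines had a median of 4.24 and the BXH lines one of 4.27. In this table the HXB/BXH lines did not form separate groups. Of 30 lines, 19 were nearer to SHR/OlaIpcv and 11 to BN-Lx/Cub, 7 lay outside the interval between the progenitors, and by BIC 1 normal distribution described the 30 means better than a mixture. The same was found in the reconstructed genes of v5 and v7.1. In the v5 Ensembl table, 2 clusters were favoured, of 25 lines at 4.03 and 5 at 4.17 (BIC gain 6.55, past the limit of 6), and in v6 2 clusters of 26 and 4 lines with a gain of 2.41, short of that limit. In both, most lines were nearer to SHR/OlaIpcv, 25 and 20 of 30, but many lay outside the interval between the progenitors, with 21 lines below both and 3 above both in the v5 Ensembl table, and 8 below and 4 above in v6.

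LE/Stm was the highest strain for annotated Corin in the gene tables of v5 Ensembl 96 (4.71) and v7.1 reconstruction (5.31) as well, and the second of 58 strains in v6 (4.33), behind LEXF1C/Stm (4.37). BN-Lx/Cub exceeded SHR/OlaIpcv in each of the 7 measurements of annotated Corin, by 0.07 to 0.74. The 7 share animals and are not independent. The largest difference, that of the v7.1 RefSeq transcript, was below the pooled SD of animals within strains (1.41). So were those of the v5 Ensembl gene (0.0996 against 0.103) and transcript (0.0744 against 0.0844). In the rest the difference was above that SD. The strain means of the annotated feature had an r of 0.94 with those of the v5 Ensembl gene and 0.84 with those of the v7.1 RefSeq gene over 45 strains, which share animals, and 0.60 with those of the v7.1 RefSeq transcript. With the 3-exon feature r was -0.26. No feature outside v5 that is named Corin had the split of the 3-exon feature.

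Over 74 strains, the RefSeq genes most like Corin were Stambpl1 (a deubiquitinase, r = -0.60), Tuba1c (an alpha-tubulin, 0.59), Rxfp1 (the relaxin receptor, -0.55), Rasgef1b (-0.55) and Drp2 (-0.55). These points share batches, and the values are weak.

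Partners of corin in the natriuretic peptide system were measured in these brains. The list held 16 genes, of which 14 were tested in v5 (21 features) and 15 in v7.1. Between BN-Lx/Cub and SHR/OlaIpcv, 0 of 21 features and 0 of 15 genes differed by limma (Benjamini-Hochberg, 5%), where 2.10% of v5 features and 4.48% of RefSeq genes did. At an unadjusted p under 0.05 there were 2 and 1. The median difference was -0.01 in v5 (-0.07 over all features) and -0.08 in v7.1 (-0.02 over all genes). The substrate gene Nppa measured 5.73 and 5.89 in v5, and 5.76 and 5.86 in v7.1, in the same order. The receptor gene Npr1 measured 8.71 and 8.77 in v5, and 8.74 and 8.99 in v7.1. Furin, whose product also cleaves natriuretic peptide precursors, measured 9.72 and 10.03 in v5.

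Several of these genes varied over all strains. In v5, 13 of the 21 features passed the F-test (36.7% of all features did). The 6 with the smallest adjusted p-values were of Pde5a, a cyclic GMP phosphodiesterase (10.35 in SR/JrHsd to 11.80 in F344/Stm, adjusted p = 8.2e-16), the proprotein convertase Pcsk6 (9.77 to 10.67, 4.7e-05), Ostn, whose peptide osteocrin binds the clearance receptor (0.99 to 3.51, 7.8e-05), Nppc (5.28 to 6.53, 0.00014) and 2 features of Ide, insulin-degrading enzyme (0.00023 and 0.00055). With sequencing batch as a covariate the calls of Pde5a, Nppc and 1 Ide feature were lost. Those of Pcsk6 (highest adjusted p = 0.18 by limma), Ostn (0.10) and the other Ide feature (0.39) were lost without at least 1 replicate number, and that of Pcsk6 also with the batch number of the sample title. In v7.1, where 37.1% of RefSeq genes varied, the calls were Npr1 (8.68 to 9.35, adjusted p = 0.0002), Ostn (0.0031), the clearance receptor Npr3 (0.0068) and Ide (0.024). All 4 of these calls were lost without at least 1 replicate number, with a highest adjusted p by limma of 0.16 for Npr1, 0.10 for Ostn, 0.69 for Npr3 and 0.67 for Ide. Among the HXB/BXH lines, 2 of 21 features passed, of Ostn (0.00039) and Ide (0.0047), where 10.4% of all features did.

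Relatives of corin among the transmembrane serine proteases, with their inhibitors, were measured in part. Of 20 genes, 8 were tested in v5 and 11 in v7.1. In v5, Spint1, which encodes a protease inhibitor of epithelia, was higher in BN-Lx/Cub (8.27) than in SHR/OlaIpcv (7.55), by 0.72 (SE 0.19, adjusted p = 0.015). In v7.1 it measured 7.73 and 7.72 (difference 0.01, SE 0.13, adjusted p = 0.98), and in v5 the call was lost with sequencing batch as a covariate. It was the only call of 8, where 2.10% of all features were called, with a median difference of 0.23 in the list against -0.07 over all features, and 0 of 11 genes passed by limma in v7.1 (2 at an unadjusted p under 0.05, where 4.48% of genes were called). Over all strains, 6 of 8 features varied in v5 (36.7% of all features), those of St14 (the protease matriptase, adjusted p = 2.1e-13), Spint1 (1.1e-10), Tmprss7 (3.9e-10), Tmprss15 (enteropeptidase, 1.1e-07), Hpn (hepsin, 8.4e-06) and Spint2 (0.027), of which Hpn, Tmprss15 and Spint2 were lost with sequencing batch as a covariate and, with the batch number of the sample title, St14 as well (adjusted p = 0.072 by limma). In v7.1, 9 of 11 varied (37.1% of all genes), led by Spint1 (7.31 in DA/OlaHsd to 8.18 in BUF/MnaMcwi, 1e-16) and Tmprss9 (1.3e-10).

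Genes of the floor plate and of midbrain dopamine neurons gave 0 calls between the progenitors by limma among 12 features in v5 and 0 among 11 genes in v7.1, and 0 at an unadjusted p under 0.05 in both. Over all features 2.10% and 4.48% were called. The median difference of the list was 0.31 in v5 (-0.07 over all features) and -0.11 in v7.1 (-0.02). Over strains, 6 of the 12 features varied in v5 (36.7% of all features) and 3 of the 11 genes in v7.1 (37.1%). Nr4a2, a factor of dopamine neurons, varied between strains in v5 (9.21 in COP/CrCrl to 10.29 in HXB13/Ipcv, adjusted p = 7.7e-07) and in v7.1 (adjusted p = 1.9e-06), and in v5 also among the HXB/BXH lines (adjusted p = 2.4e-05). The call among the lines was lost without replicate 1 and without replicate 2 (highest adjusted p = 0.14 by limma), and the call in v7.1 without replicate 2 (0.057).

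Heart muscle markers, from the tissue in which corin is best known, had a summed level of 7.89 to 8.59 over the strains of v7.1. BN-Lx/Cub was at 8.21, SHR/OlaIpcv at 8.34 and LE/Stm at 8.17, and over 74 strains the sum had an r of 0.10 with Corin. Over all cell types measured, this r ran from -0.22 for neurons to 0.36 for liver.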

How the data were processed

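Brain libraries of untreated rats were grouped by the strain in their labels. The authors trimmed reads (cutadapt 1.9.1), removed ribosomal reads (Bowtie2), aligned to strain-specific rn6 genomes (HISAT2), reconstructed transcripts (StringTie), estimated abundance with RSEM, removed 1 factor of unwanted variation and applied the regularized log transform of DESeq2. The study's methods state these steps for v5. The submitters' processing notes list 2 sets of versions (Bowtie2 2.3.4.3 and 2.4.5, HISAT2 2.1.0 and 2.2.1, StringTie 1.3.5 and 2.2.1, RSEM 1.3.1 and 1.3.3) without tying them to a table, and the build of v6 and v7.1 is not given in the sources used here. The deposited values are on a log2 scale, and the columns in which the authors' values pass what a log2 count can reach were read as a score on that scale. No counts were used, so depth is unknown and the number of animals limits precision. The number of columns left unmapped was 0.

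Libraries sharing a strain and replicate number were averaged as 1 animal. All features of a table were fitted by strain with limma 3.58.1 (R 4.3.3), with Benjamini-Hochberg adjustment at 0.05. No filter was added to the authors' own. The F-test took all strains, and the progenitors were compared by a contrast with the spread shared over strains. On simulated data the fit was tested and recovered most of the larger shifts put in. The simulated noise was independent between libraries and had no batch structure, so this does not bear on batch. Mixtures of 1 to 3 clusters with equal variance used mclust 6.1.1, the package the authors also used. Correlations and Corin levels were described without tests. Promoters came from RefSeq (GRCr8).

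Alternatives were a batch covariate, a replicate block, a filter on low levels, leaving out each replicate number, other tables and rank correlation. Named genes were Corin features, members of the lists, symbols within 2 Mb, the 10 features most like the 3-exon feature over HXB/BXH lines and the 5 RefSeq genes most like Corin, with up to 6 called members per list. The members and lists were chosen with earlier results of these data known. Replicates are separate animals by the design text.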

Additional observations from a re-analysis of the deposited data

How the results depend on the processing

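The difference between BN-Lx/Cub and SHR/OlaIpcv in the 3-exon feature ran from -6.19 to -5.67 when replicate numbers were left out in turn. For annotated Corin the direction was the opposite, at 0.61 (v5 reconstruction, and 0.61 by construction without the 4 libraries that resembled another strain, none of them of a progenitor), 0.10 (v5 Ensembl genes), 0.0744 (v5 Ensembl transcripts), 0.23 (v6), 0.61 (v7.1 reconstruction), 0.33 (v7.1 RefSeq genes) and 0.74 (v7.1 RefSeq transcripts), since those are other features. The number of HXB/BXH lines nearer to SHR/OlaIpcv was 28 to 30 without a replicate number, and for annotated Corin 16 (v5 reconstruction), 25 (v5 Ensembl genes), 25 (v5 Ensembl transcripts), 20 (v6), 15 (v7.1 reconstruction), 19 (v7.1 RefSeq genes) and 16 (v7.1 RefSeq transcripts). Without replicate 1 or 2, BXH6/Cub and BXH9/Cub moved to the BN-Lx/Cub side, as their replicate 3 was then 1 of 2 animals. Of the 10 features most like the 3-exon feature, 3 remained by rank correlation, 2 over 45 strains and 2 to 7 without a replicate number.

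Counts of calls moved more. With sequencing batch as a covariate they were 18702 (strain effect, v5), 1077 (progenitors, v5), 11907 (strain effect, v7.1) and 154 (progenitors, v7.1), and with the batch number of the sample title 15928 and 957 in v5. The v5 Ensembl table gave 800 for the progenitors. With only features above the median, v7.1 gave 3571 and 470, and with 1 library per animal 547 for the progenitors. Leaving out replicate numbers gave 12079 to 36477 (strain effect, v5), 1057 to 2395 (progenitors, v5), 3985 to 10186 (HXB/BXH lines), 2998 to 7335 (strain effect, v7.1) and 194 to 1288 (progenitors, v7.1). The cause of these changes was not tested, beyond the smaller number of features or animals in a fit. Each named call among HXB/BXH lines was lost without at least 1 replicate number.

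With a replicate block the progenitors gave 410 calls in v7.1 and 2203 in v5, and the strain effect 41709 in v5, 14018 among HXB/BXH lines and 7977 in v7.1. The labels do not pair animals across strains by number: deviations of same-numbered animals had a mean correlation of 0.04 (lowest -0.44), against -0.02 for other pairs.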

Other observations

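Of the features without a symbol within 2 Mb of the 3-exon Corin feature, PRN6.5G0172540 was lower in BN-Lx/Cub (2.04) than in SHR/OlaIpcv (3.84), with an adjusted p of 0.0048 by limma, and all 30 HXB/BXH lines were nearer to SHR/OlaIpcv. It lay upstream of annotated Corin, and its strain means had an r of 0.79 with those of the 3-exon feature over 45 strains. PRN6.5G0172676, which overlaps the span of Tec, was also lower in BN-Lx/Cub (2.57 against 4.19, adjusted p = 0.0038 by limma), and 12 of 30 lines were nearer to SHR/OlaIpcv.

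Of the 77 features that shared the order of 12 and 33 strains, 70.1% had no symbol, but some carried that of a gene of known function. A feature of Hspa8, a heat shock chaperone, averaged 14.61 over the 12 strains and 15.76 over the 33. Hpcal1, a neuronal calcium sensor, averaged 10.61 and 11.66, and Sbk1 averaged 10.30 and 11.41. A short feature with the symbol Snrpe, a component of the splicing machinery, at chr8:129371556-129371973, averaged 7.94 and 4.74. Whether it measures the gene itself was not tested. These were named after their values had been seen.

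A normal mixture over all 45 strain means of the 3-exon feature gave 3 clusters, with 12 strains at 4.10, 4 strains at 7.95 and 29 at 9.69. The middle cluster held BXH6/Cub, BXH9/Cub, F344/Stm and LE/Stm.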
